A study of Mus musculus with 18 samples.

Results

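Xenobiotic and retinoid metabolism was followed through 78 genes for enzymes of 6 families in sorted mouse intestinal stem cells with and without Dlg1. The genes were chosen by symbol (cytochromes P450 of families Cyp1 to Cyp4, carboxylesterases Ces1 and Ces2, alcohol dehydrogenases Adh, glucuronosyltransferases Ugt1 and Ugt2, glutathione transferases Gsta, Gstm, Gstp, Gstt and Gstk, and sulfotransferases Sult1 and Sult2). Of 43432 genes counted, 154 had such a symbol, and the 78 members were those with at least 10 counts in at least 4 libraries of either time. The 16 matching symbols marked as pseudogenes were left out. The members were 31 Cyp, 17 Gst, 11 Ugt, 9 Ces, 5 Adh and 5 Sult genes, all annotated as protein coding, and 67 of them reached the count rule at both times. Ugt1a2 and Ugt1a6b were just inside the rule with 4 libraries, and Ces1c, Ces2b, Cyp2j13, Cyp4a32, Gsta2 and Ugt1a9 were just outside it with 3.

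The libraries were SmartSeq cDNA from 5000 to 10000 sorted stem cells of the intestinal epithelium of mice aged 8 to 16 weeks. They came from Dlg1 conditional knock-out mice taken 2 days (48 hours) after tamoxifen (4 libraries), wild-type mice at 2 days (4 libraries), Dlg1 conditional knock-out mice at 14 days (5 libraries) and wild-type mice at 14 days (5 libraries). Tamoxifen, which induces the deletion in conditional alleles, was given to all 4 groups. The labels name neither the promoter that drives the recombinase nor the marker used for sorting, and do not say whether each library was a separate animal, so that p-values measure the spread between libraries, which may be technical. DLG1 is a scaffold protein of epithelial cell polarity. The study asked which genes differ between knock-out and wild-type stem cells at each time.

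Enzymes of these families clear foreign chemicals and also process endogenous lipids, steroids and vitamin A. In phase 1, alcohol dehydrogenases, cytochromes P450 and carboxylesterases oxidise or hydrolyse a substrate; in phase 2, glucuronosyltransferases, glutathione transferases and sulfotransferases attach a polar group that allows export. In the small intestine most of them are made in villus enterocytes, the absorptive cells, and less in the crypt stem cells that give rise to these. Several are induced through ligand-activated receptors, Cyp1a1 through the aryl hydrocarbon receptor, Cyp2b10 through the constitutive androstane receptor and Cyp3a11 through the pregnane X receptor.

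Libraries held 14816933 to 40544439 counts at 2 days and 11133674 to 15706057 counts at 14 days. Members took 0.0979% to 0.198% of the counts of knock-out libraries and 0.0861% to 0.115% of those of wild-type libraries at 2 days, and 0.127% to 0.339% against 0.222% to 0.349% at 14 days. Dlg1 itself, counted over the whole gene, overlapped between genotypes at both times, at 45.6 to 68.4 CPM (counts per 1000000 counts of the scaled library) in knock-out against 57.1 to 82.4 CPM in wild-type libraries at 2 days and 36.9 to 85.4 against 54.0 to 75.1 CPM at 14 days. Reads from outside the deleted part, which do not check the deletion, enter such counts. For Arhgap31, named in the title of the study, no knock-out library reached the level of any wild-type library at either time (0.287 to 0.984 against 1.98 to 7.02 CPM at 2 days, 0.534 to 2.56 against 5.80 to 11.5 CPM at 14 days). Stem cell markers were abundant in all libraries, with 19 markers summing to 10540 to 13068 CPM in knock-out against 14007 to 16190 CPM in wild-type libraries at 2 days and to 3387 to 4526 against 3590 to 4604 CPM at 14 days. Markers of other cell types were present too. The 30 enterocyte markers summed to 3477 to 10007 against 3579 to 4654 CPM at 2 days and to 2421 to 6076 against 2622 to 8248 CPM at 14 days. The 13 goblet cell markers summed to 629 to 1683 against 725 to 880 CPM at 2 days and to 1961 to 12778 against 1436 to 5917 CPM at 14 days. Of the hepatocyte markers Alb averaged at most 0.671 CPM in a group, while Cps1, which the intestine also makes, averaged 1063 to 4100 CPM. Some libraries stood apart: wild-type library 1 at 2 days had the largest share of mitochondrially encoded counts (49.1%), and knock-out library 5 had the smallest share of counts on the members among 14-day libraries (0.127%). Knock-out library 1 had the highest enterocyte marker sum at 2 days. Wild-type library 3 (8248 CPM) and knock-out library 1 (6076 CPM) had the highest ones at 14 days. For 13 Paneth cell markers wild-type library 3 summed to 18053 CPM at 14 days. The other wild-type libraries summed to 2144 to 4271 CPM there, and knock-out libraries to 3478 to 5623 CPM. The groups mix sexes: Y-linked transcripts summed to 153 to 261 CPM in libraries 1, 3 and 4 of each genotype at 14 days, and to 206 and 229 CPM in knock-out libraries 1 and 2 and 189 and 233 CPM in wild-type libraries 3 and 4 at 2 days, and to at most 0.934 CPM in the other libraries. The 14-day column names also carry a letter of unstated meaning, B for libraries 1 and 2 and J for libraries 3 to 5 of each genotype.

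Levels can be compared between genes only per length, here as CPM per kilobase of exon. At 2 days the most abundant members were Gstm3, Gstm1, Adh1 and Ugt2b34 in knock-out cells, at 65.8, 45.7, 41.5 and 39.2 CPM per kilobase. The same 4 genes led in wild-type cells, in the order Gstm1, Ugt2b34, Gstm3 and Adh1, at 42.5, 37.3, 28.8 and 28.8 CPM per kilobase. Gstm1 and Gstm3 are mu-class glutathione transferases, Adh1 is the class I alcohol dehydrogenase that oxidises ethanol and retinol, and Ugt2b34 is a glucuronosyltransferase. At 14 days the pi-class glutathione transferase Gstp1 led both genotypes, at 187 CPM per kilobase in knock-out and 141 in wild-type cells, and Adh1 came next at 106 and 102. Members under 1 CPM per kilobase numbered 17 in knock-out and 29 in wild-type cells at 2 days, and 19 and 17 at 14 days.

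**Figure D1:**
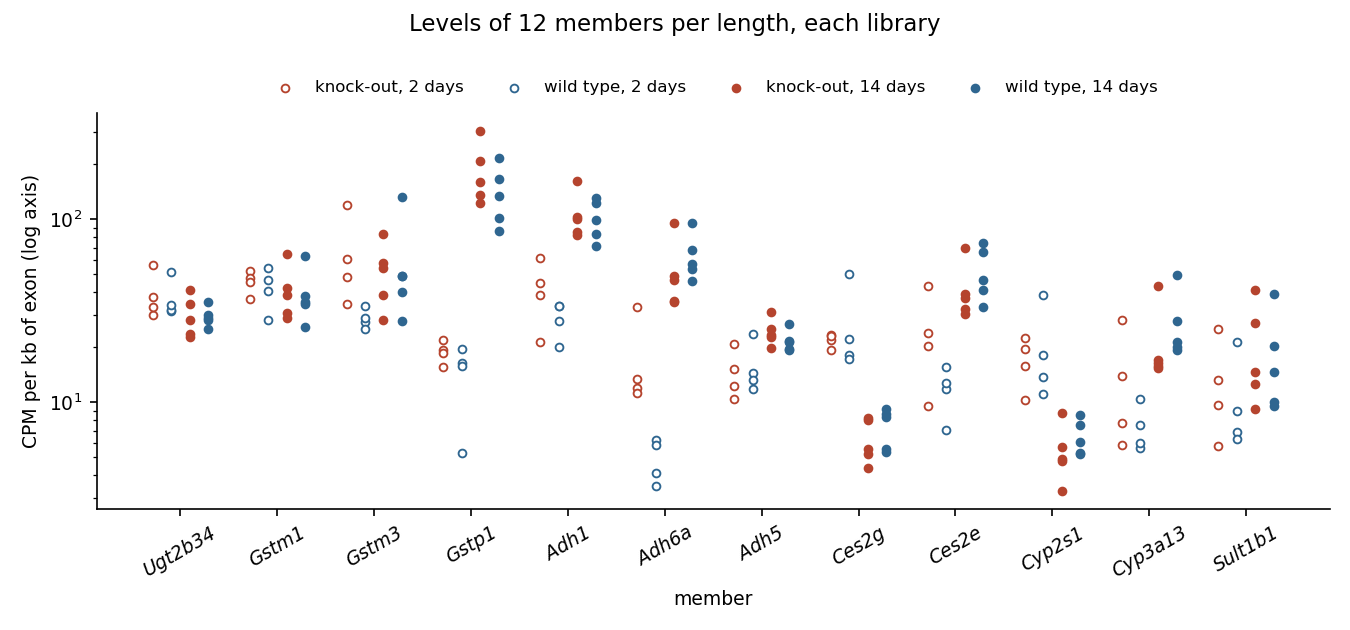
Levels of 12 abundant members in each library, as CPM per kilobase of exon on a log axis. Open points are 2-day and filled points 14-day libraries, red for knock-out and blue for wild type. Gstp1, Adh1, Adh6a and Ces2e sit higher at 14 than at 2 days in most libraries of both genotypes, Ces2g and Cyp2s1 sit lower, and the 4 groups overlap for Ugt2b34 and Gstm1.

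At 2 days after tamoxifen most members had a higher fitted level in knock-out than in wild-type stem cells, but no member passed the test over all genes. Of the 67 members that could be tested, 0 had an adjusted p under 0.05 (edgeR's quasi-likelihood F-test, Benjamini-Hochberg adjustment; 0.0% of the 13031 genes tested). At an unadjusted p under 0.05, 12 members were higher in knock-out cells (2.72% of all genes were) and 0 were lower (2.19% of all genes were), where 4.91% of all genes reached that level in either direction. The fold change was positive for 56 members and negative for 11, where 51.0% of all genes were positive, and its median was 0.53 on the log2 scale against 0.01 for all genes. DESeq2 called 3 members, Adh6a (adjusted p = 0.00115), Cyp4f40 (adjusted p = 0.0265) and Ces1f (adjusted p = 0.0498), among 0.104% of the genes it tested, and limma voom called 0 members and 0.0% of all genes. The 11 members not tested at 2 days reached the count filter in too few libraries. Others may have passed the count filter through the group in which they were high, and the counts here are a description.

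The lean was not even over the libraries. Relative to the mean of the wild-type libraries, the median log2 level of the 78 members was 0.86, 0.11, 0.24 and 0.50 in knock-out libraries 1 to 4, against -0.23, 0.25, -0.02 and 0.01 in wild-type libraries 1 to 4. Knock-out library 1 held the highest of the 8 values for 36 of the 67 tested members, which is 53.7%. Without that library 6 members were higher at an unadjusted p under 0.05, 48 fold changes were positive and the median was 0.28. Without wild-type library 1 the corresponding values were 13, 60 and 0.51. Enterocyte markers moved the same way: 28 of 30 had a positive fold change at 2 days, 11 of them at an unadjusted p under 0.05, with a median of 1.05 on the log2 scale, and none passed the adjustment. Their summed level was 10007, 3882, 3477 and 5024 CPM in knock-out libraries 1 to 4, against 4654, 4081, 3579 and 3789 CPM in wild-type libraries 1 to 4. Members and enterocyte markers were both highest in knock-out library 1 and next in knock-out library 4, but the other libraries did not keep a common order. Wild-type library 1 came next in enterocyte marker sum and had the lowest member median (-0.23). Knock-out library 3 had the lowest enterocyte marker sum and a member median of 0.24. At 2 days tuft cell markers had a positive fold change for 9 of 11 (median 1.22) as well. Goblet cell markers had one for 9 of 12 (median 0.40). Paneth cell markers were positive for 7 of 13 and enteroendocrine markers for 6 of 11. Of the 19 stem cell markers 14 were negative (median -0.13). The ranges of their summed level, in which Clca3b was the most abundant gene of both groups, did not meet. They were 10540 to 13068 CPM in knock-out and 14007 to 16190 CPM in wild-type libraries. The median log2 level of the 19 stem cell markers, relative to the wild-type mean, did overlap. It was -0.25 to -0.06 in knock-out and -0.11 to 0.04 in wild-type libraries. The part of these marker lists in the result was not tested. In such bulk libraries more cells of a type and more RNA per cell cannot be told apart.

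**Figure D2:**
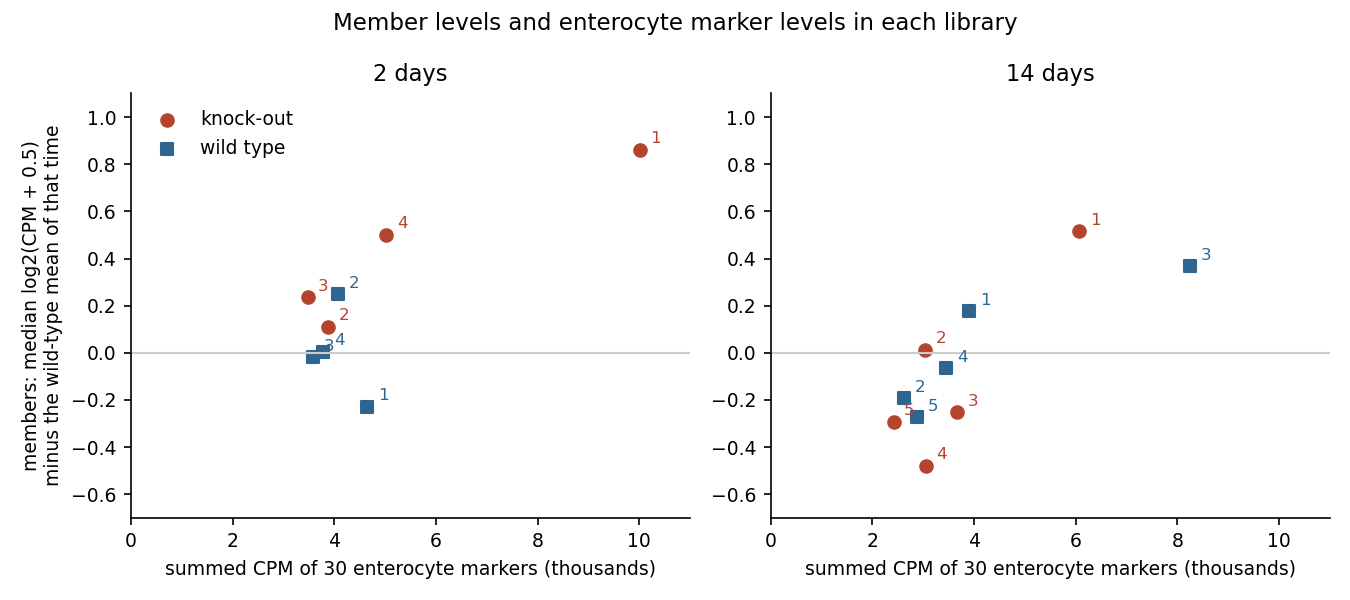
Median deviation of the members from the wild-type mean of their time, as log2(CPM + 0.5), against the summed level of 30 enterocyte markers in units of 1000 CPM. Each point is a library with its number, red circles knock-out and blue squares wild type. Knock-out library 1 at 2 days lies at 10007 CPM and 0.86, and the 2 libraries with the highest marker sums at 14 days, knock-out 1 and wild-type 3, have the highest member medians there, at 0.52 and 0.37.

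A total of 6 members were higher in every knock-out library than in every wild-type library at 2 days, and 0 were lower in every one. They made up 8.96% of the members tested, against 2.0% of all genes for the higher side and 1.93% for the lower side. They were the alcohol dehydrogenase Adh6a, the carboxylesterase Ces1f, the cytochromes Cyp4f40 and Cyp4f14 of the subfamily that hydroxylates the ends of fatty acid chains, and the glutathione transferases Gstm3 and Gsta1.

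Adh6a (chr3:138313286-138331134, plus strand, GRCm38) lies in the cluster of alcohol dehydrogenase genes on chromosome 3. It had 84.6, 30.5, 33.9 and 28.7 CPM in knock-out libraries, against 8.91, 10.4, 15.9 and 14.8 CPM in wild-type libraries. The groups did not overlap, and the first knock-out library was more than 2 times any other. The log2 fold change was 1.83 ± 0.36 (SE), with 400 to 1455 counts in knock-out and 179 to 232 counts in wild-type libraries. This missed the threshold by edgeR's quasi-likelihood F-test, Benjamini-Hochberg adjustment (adjusted p = 0.615), and the two-sided exact permutation p of 0.0286 was the smallest that 4 against 4 libraries can give. Without knock-out library 1 the log2 fold change was 1.31.

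Cyp4f40 (chr17:32658900-32676914, plus strand) also separated the genotypes. It had 11.97, 8.02, 13.7 and 7.75 CPM in knock-out libraries, against 2.998, 3.90, 4.11 and 3.97 CPM in wild-type libraries. The lowest knock-out library thus stood well above the highest wild-type library, and library 1 was not the highest of the knock-out group. The log2 fold change was 1.47 ± 0.34 (edgeR's quasi-likelihood test, Benjamini-Hochberg adjusted p = 0.866), and it stayed between 1.29 and 1.58 when each library was left out in turn. Cyp4f14 (chr17:32905070-32917342, minus strand), which in the mouse hydroxylates leukotriene B4, had 81.8, 26.2, 22.6 and 38.2 CPM in knock-out libraries against 12.5, 20.5, 13.2 and 19.004 CPM in wild-type libraries. Its lowest knock-out value was close to its highest wild-type value. Its log2 fold change of 1.37 ± 0.38 (edgeR, Benjamini-Hochberg adjusted p = 0.866) was 0.83 without knock-out library 1.

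Ces1f (chr8:93256236-93279747, minus strand), a carboxylesterase of a tandem cluster of related genes, had 21.97, 10.4, 4.79 and 6.31 CPM in knock-out libraries, against 0.257, 1.81, 1.78 and 3.33 CPM in wild-type libraries. Its log2 fold change of 2.61 ± 0.69 (edgeR, Benjamini-Hochberg adjusted p = 0.866) was the largest of all members tested at 2 days, from 73 to 378 counts in knock-out and 6 to 52 counts in wild-type libraries. Gstm3 (chr3:107963696-107969283, minus strand) had 157, 45.4, 63.1 and 79.6 CPM in knock-out libraries, against 35.97, 33.0, 44.3 and 37.9 CPM in wild-type libraries. Library 1 was again far above the others and library 2 lay just above the highest wild-type value. The log2 fold change of Gstm3 was 1.19 ± 0.32 (edgeR, Benjamini-Hochberg adjusted p = 0.866), and 0.73 without knock-out library 1. The alpha-class enzyme Gsta1 (chr9:78230656-78242684, plus strand) had 13.5, 1.68, 2.03 and 3.23 CPM in knock-out libraries, against 0.942, 1.57, 1.37 and 1.41 CPM in wild-type libraries. Its log2 fold change of 1.95 ± 0.70 (edgeR, Benjamini-Hochberg adjusted p = 0.866) rested on 1 library and was 0.80 without it. Its near-identical paralog Gsta2 missed the count rule, and reads of the pair may have been split.

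**Figure D3:**
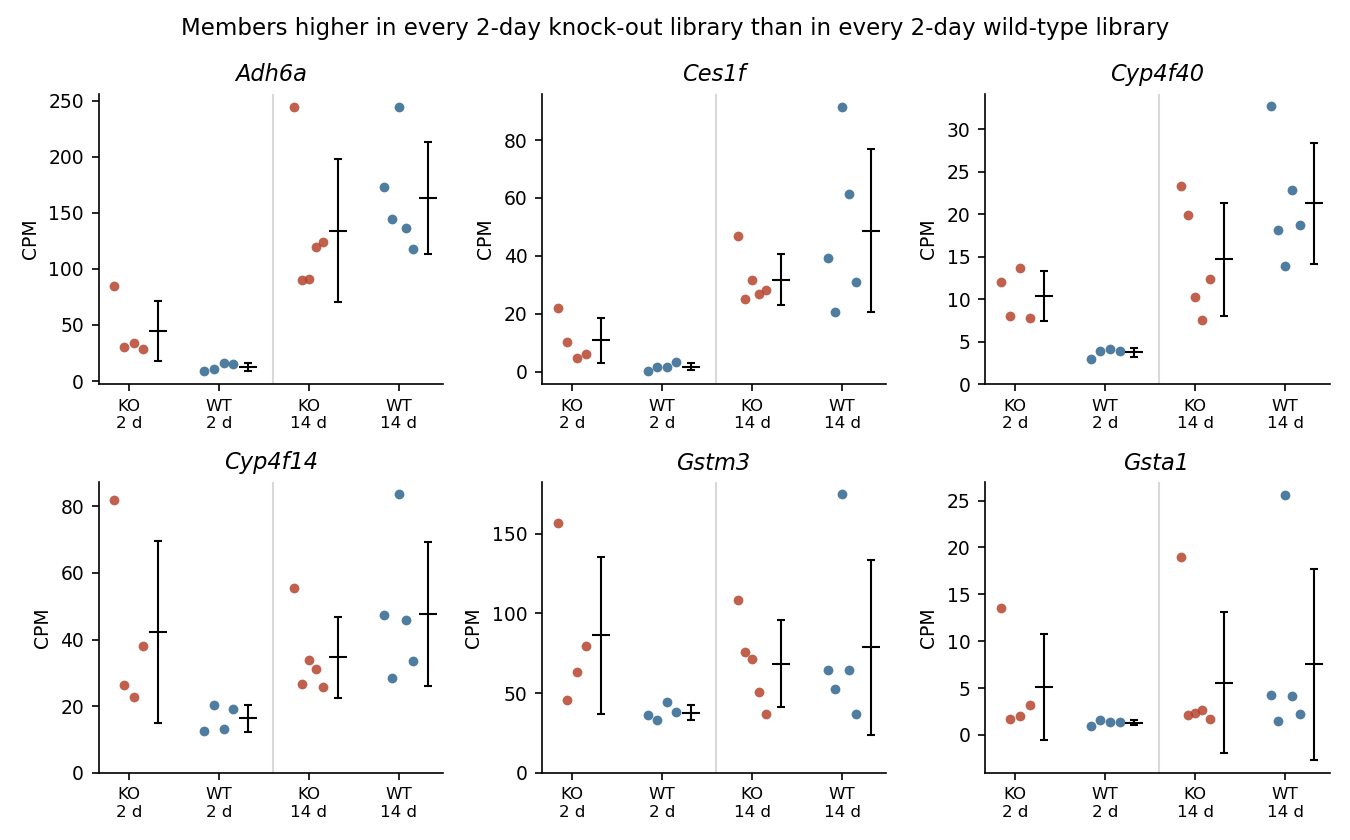
CPM in each library of the 6 members whose 2-day knock-out libraries (red) all lay above the 2-day wild-type libraries (blue), with the 14-day libraries to the right of the line. Points are libraries in their numbered order and bars are the mean with its SD (n = 4 per group at 2 days, n = 5 at 14 days). At 14 days the groups overlap for all 6.

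The 250 bases before the start of 5 of these 6 genes, and of Cyp3a11, are shown because the genes carried the 2-day pattern and because Cyp3a11 held CAAAGTCCA, the motif with the highest ratio of its share among members to its share in all promoters. Sequences are from RefSeq on GRCm38.p6, 5′ to 3′ on the strand of the gene, and 69 of the 78 members matched the table of promoters. The start is that of RefSeq and can differ from the gene spans used here. The windows of Gstm3, Gsta1 and Cyp3a11 lie partly inside those spans. Capitals mark matches, on either strand, to GCGTG (core of the aryl hydrocarbon receptor element), TGACNNNGC (core of the antioxidant response element), AGTTCA or AGGTCA (core hexamers of nuclear receptor elements), CAAAGTCCA (HNF4) or TTTATNG (CDX proteins).
Adh6a, chr3:138313036-138313285, plus strand: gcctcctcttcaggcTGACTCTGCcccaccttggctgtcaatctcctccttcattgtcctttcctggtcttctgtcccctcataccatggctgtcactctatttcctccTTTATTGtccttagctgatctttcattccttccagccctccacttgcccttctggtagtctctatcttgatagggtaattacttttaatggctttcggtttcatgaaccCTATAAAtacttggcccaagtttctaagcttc
Cyp4f40, chr17:32658636-32658885, plus strand: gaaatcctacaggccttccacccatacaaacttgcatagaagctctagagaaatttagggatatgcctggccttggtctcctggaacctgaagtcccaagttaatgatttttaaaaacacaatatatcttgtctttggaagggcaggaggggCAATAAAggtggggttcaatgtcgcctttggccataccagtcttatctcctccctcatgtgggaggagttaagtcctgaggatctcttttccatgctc
Cyp4f14, chr17:32917357-32917606, minus strand: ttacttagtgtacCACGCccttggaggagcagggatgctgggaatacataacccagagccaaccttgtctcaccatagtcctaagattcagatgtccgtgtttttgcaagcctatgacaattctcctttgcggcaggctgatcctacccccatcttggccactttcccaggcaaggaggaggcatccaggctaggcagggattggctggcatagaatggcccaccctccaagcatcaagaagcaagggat
Gstm3, chr3:107969175-107969424, minus strand: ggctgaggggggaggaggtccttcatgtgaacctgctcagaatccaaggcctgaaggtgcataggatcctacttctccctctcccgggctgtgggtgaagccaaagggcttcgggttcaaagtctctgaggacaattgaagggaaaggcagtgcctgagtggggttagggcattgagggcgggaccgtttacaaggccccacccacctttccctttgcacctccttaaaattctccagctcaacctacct
Gsta1, chr9:78230419-78230668, plus strand: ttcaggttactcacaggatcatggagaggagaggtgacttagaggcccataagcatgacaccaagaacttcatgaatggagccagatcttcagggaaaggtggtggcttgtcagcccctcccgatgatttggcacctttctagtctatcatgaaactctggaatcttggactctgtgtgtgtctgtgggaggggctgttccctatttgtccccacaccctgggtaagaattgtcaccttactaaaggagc
Cyp3a11, chr5:145879855-145880104, minus strand: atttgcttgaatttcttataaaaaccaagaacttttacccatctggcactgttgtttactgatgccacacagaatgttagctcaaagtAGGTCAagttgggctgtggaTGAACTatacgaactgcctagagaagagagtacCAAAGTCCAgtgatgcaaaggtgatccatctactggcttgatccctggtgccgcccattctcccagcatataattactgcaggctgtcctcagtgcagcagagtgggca
No single motif was common to the 5 promoters of the 2-day pattern. Adh6a held 1 match to TGACNNNGC and 2 to TTTATNG, Cyp4f40 held 1 match to TTTATNG, Cyp4f14 held 1 match to GCGTG, and Gstm3 and Gsta1 held none. Over the families, CAAAGTCCA was in 4 of 69 member promoters (Cyp2c65, Cyp2c68, Cyp2c70 and Cyp3a11), which is 5.8%, against 0.381% of the 27025 promoters of the table. AGGTCA was in 20.3% against 13.8%, AGTTCA in 13.0% against 11.9%, TTTATNG in 11.6% against 10.2%, GCGTG in 20.3% against 28.2% and TGACNNNGC in 4.35% against 10.1%. The Cyp2c genes are near copies of each other, so their promoters are not separate cases. Matches of letters are a description and not binding sites.

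By role, the retinol and alcohol dehydrogenases did not move as 1 group at 2 days. Besides Adh6a, Adh1 had 137, 99.8, 47.8 and 86.4 CPM in knock-out libraries, against 62.0, 75.5, 44.8 and 74.7 CPM in wild-type libraries. These ranges overlapped and the log2 fold change was 0.53 ± 0.28 (edgeR, Benjamini-Hochberg adjusted p = 0.866). Adh5, the class III enzyme that oxidises formaldehyde bound to glutathione, averaged 79.4 ± 24.8 CPM in the knock-out group and 85.5 ± 29.0 CPM in the wild-type group (± SD, 4 libraries a group). The retinol-oxidising Adh4 and Adh7 were too low to test at 2 days, with 3 to 28 against 1 to 10 counts per library for Adh4 and 0 to 1 against 0 to 5 counts for Adh7.

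Among the cytochromes P450, 20 of 25 tested members had a positive fold change at 2 days, 4 of them at an unadjusted p under 0.05 (Cyp4f40, Cyp4f14, Cyp3a25 and Cyp2c29). Cyp3a25, of the drug-metabolising Cyp3a subfamily, had 21.4, 2.33, 1.57 and 7.25 CPM in knock-out libraries, against 0.128, 1.17, 3.01 and 1.54 CPM in wild-type libraries. Its relative Cyp3a11 had 24.3, 2.60, 1.77 and 10.7 CPM in knock-out libraries against 0.942, 6.12, 2.53 and 3.07 CPM in wild-type libraries. Both overlapped between genotypes, and libraries 1 and 4 were the high ones. Cyp3a13 behaved alike, at 83.8, 22.8, 17.4 and 41.4 CPM in knock-out against 22.3, 30.8, 16.6 and 17.7 CPM in wild-type libraries. Cyp1a1 was near 0 in both genotypes, with at most 2 counts in a knock-out and 11 in a wild-type library. Cyp2s1, an extrahepatic cytochrome, averaged 84.3 ± 26.3 CPM in the knock-out group and 101 ± 61.5 CPM in the wild-type group (± SD, 4 libraries a group).

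Of the 9 carboxylesterases, 8 had a positive fold change at 2 days. Ces2e, of the Ces2 group that is prominent in the gut, had 117, 25.8, 64.8 and 55.2 CPM in knock-out libraries, against 31.8, 19.2, 34.3 and 42.0 CPM in wild-type libraries. The groups overlapped through knock-out library 2, and the log2 fold change was 1.05 ± 0.38 (edgeR, Benjamini-Hochberg adjusted p = 0.866), or 0.61 without knock-out library 1. Ces2g averaged 78.5 ± 6.73 CPM in the knock-out group and 96.6 ± 56.7 CPM in the wild-type group (± SD, 4 libraries a group), and was the 1 carboxylesterase with a negative fold change.

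In phase 2, all 9 tested glucuronosyltransferases had a positive fold change at 2 days, from 0.07 to 1.74 on the log2 scale, 2 of them at an unadjusted p under 0.05. Ugt2a3 had 26.7, 8.74, 10.9 and 13.3 CPM in knock-out libraries against 8.91, 8.86, 7.26 and 6.27 CPM in wild-type libraries, and Ugt2b36 had 2.56, 1.87, 4.46 and 6.60 CPM in knock-out libraries against 2.18, 0.350, 1.03 and 1.02 CPM in wild-type libraries. Each overlapped through knock-out library 2. Ugt2b34, the most abundant of the family per length, had overlapping groups, at 169 ± 50.5 CPM in the knock-out group and 161 ± 40.8 CPM in the wild-type group (± SD, 4 libraries a group). The 6 Ugt1a members share their last exons, so their separate counts are uncertain. Of 16 tested glutathione transferases 13 were positive. Gsta4, which conjugates the lipid peroxidation product 4-hydroxynonenal, had 30.1, 10.4, 7.68 and 14.3 CPM in knock-out libraries against 5.05, 6.53, 5.61 and 8.64 CPM in wild-type libraries, with a log2 fold change of 1.28 ± 0.41 (edgeR, Benjamini-Hochberg adjusted p = 0.866), or 0.74 without knock-out library 1. The abundant Gstm1 averaged 67.3 ± 9.79 CPM in the knock-out group and 62.5 ± 16.1 CPM in the wild-type group (± SD, 4 libraries a group). The 5 sulfotransferases had fold changes from -0.20 to 1.23 on the log2 scale, 4 of them positive. Sult1b1, which sulfonates phenols and thyroid hormones, averaged 37.5 ± 23.3 CPM in the knock-out group and 30.3 ± 19.8 CPM in the wild-type group (± SD, 4 libraries a group).

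**Figure D4:**
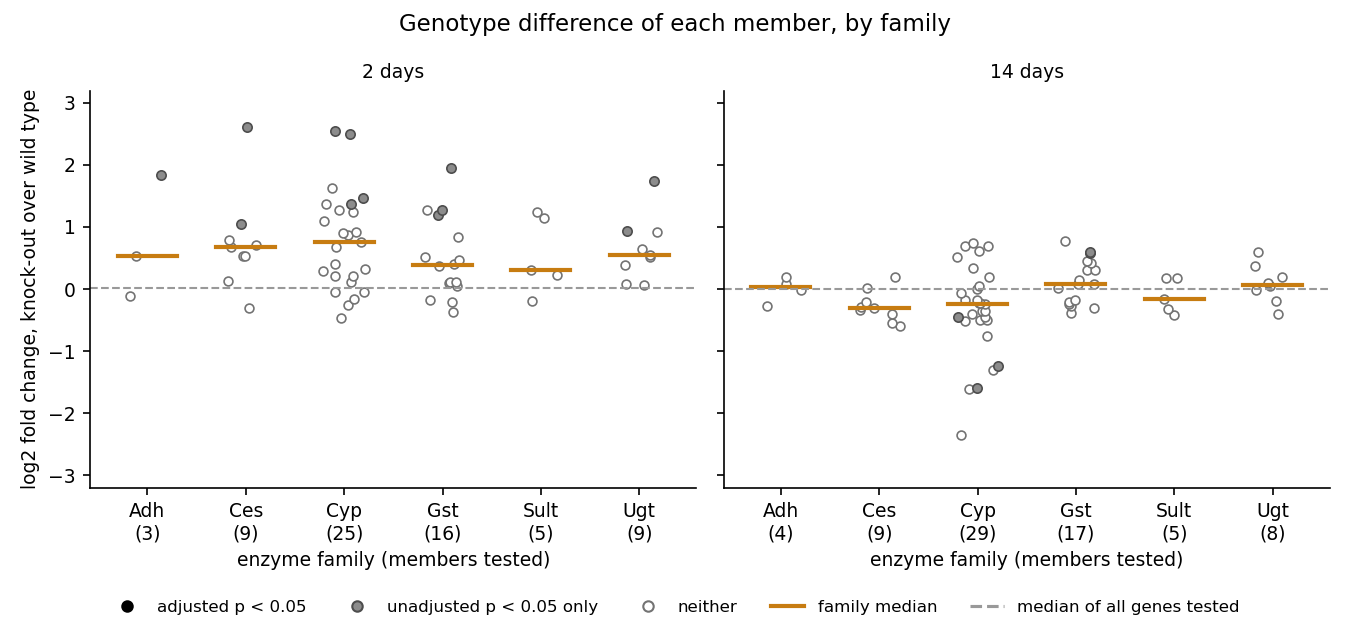
Log2 fold change, knock-out over wild type, of each tested member by family at 2 days (left) and 14 days (right). Grey points have an unadjusted p under 0.05, no point has an adjusted p under 0.05, orange lines are family medians and the dashed line is the median of all genes tested. Family medians lie above the dashed line in all 6 families at 2 days, and at 14 days the lowest points are cytochromes.

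At 14 days the members did not lean higher in knock-out cells. None of the 72 tested members had an adjusted p under 0.05 (edgeR's quasi-likelihood F-test, Benjamini-Hochberg adjustment; 0.0% of the 13991 genes tested), and DESeq2 and limma voom called 0 members as well, beside 0.00716% and 0.0% of all genes. At an unadjusted p under 0.05, 2 members were higher and 3 lower in knock-out cells, against 2.44% and 1.55% of all genes, or 3.99% in either direction. The fold change was positive for 31 members and negative for 41, where 51.0% of all genes were positive, with a median of -0.17 on the log2 scale against 0.01 for all genes. It was -0.29 without knock-out library 1, 0.0038, thus of the other sign, without wild-type library 3, and -0.11 without knock-out library 5. It was 0.15 among libraries whose columns carry the letter B (2 a group), -0.36 among those with J (3 a group) and -0.19 with the letter as a block, and none of these fits called a member. The groups overlapped for all 72 members, while knock-out libraries lay wholly above for 0.207% and wholly below for 0.343% of all genes. So no member stood apart in the same direction at both times, against 0.0% of genes above and 0.016% below. Enterocyte markers had a negative fold change for 26 of 30, with a median of -0.34, and goblet cell markers had a positive one for 13 of 13, with a median of 0.65. Enteroendocrine markers were positive for 14 of 14 (median 0.45) and tuft cell markers for 10 of 12 (median 0.44). Paneth cell markers were positive for 5 of 13 (median -0.15). The part of these marker lists in the 14-day result was not tested.

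The 5 members with an unadjusted p under 0.05 were 2 glutathione transferases of the mu class and 3 cytochromes. Gstm7 had 13.6, 10.3, 12.2, 10.5 and 8.46 CPM in knock-out libraries, against 7.95, 8.46, 9.49, 5.35 and 5.68 CPM in wild-type libraries. The ranges touched, 4 of 5 knock-out libraries were above every wild-type library, and the log2 fold change was 0.60 ± 0.22 (edgeR, Benjamini-Hochberg adjusted p = 0.957). At 2 days it was 0.84 ± 0.42 (edgeR, Benjamini-Hochberg adjusted p = 0.866), a positive value too. Gstm5 had 118, 67.1, 82.5, 60.6 and 50.6 CPM in knock-out libraries, against 48.6, 42.3, 72.7, 47.8 and 45.1 CPM in wild-type libraries. All 5 knock-out libraries exceeded 4 of the wild-type libraries, with a log2 fold change of 0.58 ± 0.21 (edgeR, Benjamini-Hochberg adjusted p = 0.957), which was 0.37 without knock-out library 1. A gene on the opposite strand overlaps Gstm5, and reads of the pair cannot be told apart if strand was not used.

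The 3 cytochromes were Cyp4f13, Cyp2b10 and Cyp3a25. Cyp2b10, Cyp3a25 and their relative Cyp3a11, which had an unadjusted p of 0.071 (edgeR), varied widely within both genotypes. Cyp2b10 had 13.3, 7.91, 2.85, 1.75 and 3.26 CPM in knock-out libraries, against 22.1, 2.49, 47.5, 15.2 and 2.87 CPM in wild-type libraries. Cyp3a25 had 10.6, 6.13, 1.46, 1.02 and 4.35 CPM in knock-out libraries, against 14.2, 5.87, 23.1, 9.18 and 4.47 CPM in wild-type libraries. Cyp3a11 had 15.3, 3.49, 1.24, 0.582 and 2.90 CPM in knock-out libraries, against 35.9, 2.86, 19.2, 12.4 and 2.04 CPM in wild-type libraries. For all 3, wild-type libraries 1, 3 and 4 were the highest of their group and wild-type libraries 2 and 5 lay inside the knock-out range. Libraries 1, 3 and 4 are also those with Y-linked transcripts in each genotype. In knock-out cells library 1 was the highest for all 3 genes and libraries 3 and 4 were the lowest. The part of sex in these levels was not tested. The log2 fold changes of Cyp2b10, Cyp3a25 and Cyp3a11 were -1.60 ± 0.73, -1.24 ± 0.58 and -1.62 ± 0.83 (edgeR, Benjamini-Hochberg adjusted p = 0.957 each). They were -1.13, -1.11 and -1.12 with a covariate of Y-linked transcripts. When 1 library was left out Cyp2b10 lay between -2.14 (without knock-out library 1) and -0.87 (without wild-type library 3), and Cyp3a25 between -1.77 and -0.83 without these same libraries. Cyp3a11 lay between -2.80 without knock-out library 1 and -0.93 without wild-type library 1. Among libraries of letter B the 3 values were -0.25, -0.29 and -1.09, and among those of letter J -3.03, -2.43 and -2.84. Cyp1a1 had 2.90, 0.0659, 0, 0.218 and 0.725 CPM in knock-out libraries, against 2.46, 0.0519, 15.5, 1.96 and 0.606 CPM in wild-type libraries, so that its log2 fold change of -2.36 ± 1.20 (edgeR, Benjamini-Hochberg adjusted p = 0.957) was -0.72 without wild-type library 3 and 0.18 among libraries of letter B. Cyp4f13 was steadier, with 26.4, 22.7, 18.5, 16.2 and 23.6 CPM in knock-out libraries, against 37.6, 30.1, 29.6, 23.3 and 28.4 CPM in wild-type libraries. It had a log2 fold change of -0.45 ± 0.18 (edgeR, Benjamini-Hochberg adjusted p = 0.957). The carboxylesterase Ces2a averaged 32.6 ± 10.3 CPM in the knock-out group and 43.9 ± 9.84 CPM in the wild-type group (± SD, 5 libraries a group).

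The members with the 2-day gap overlapped at 14 days. Adh6a had 244, 90.4, 91.3, 119 and 124 CPM in knock-out libraries, against 173, 144, 244, 136 and 117 CPM in wild-type libraries. Ces1f had 46.9, 25.1, 31.5, 26.9 and 28.4 CPM in knock-out libraries, against 39.2, 20.6, 91.5, 61.5 and 31.0 CPM in wild-type libraries. Cyp4f40 had 23.3, 19.9, 10.2, 7.57 and 12.3 CPM in knock-out libraries, against 32.7, 18.1, 13.9, 22.8 and 18.7 CPM in wild-type libraries. Both genotypes were thus above their 2-day levels for Adh6a and Ces1f, and the knock-out mean was now the lower one for each of the 3. The alcohol dehydrogenases Adh1, Adh4 and Adh5 had differences smaller than their SD (± SD, 5 libraries a group). Adh1 had 238 ± 71.8 CPM in knock-out against 227 ± 56.8 CPM in wild-type libraries. Adh4 had 3.84 ± 3.60 CPM in knock-out against 3.92 ± 1.65 CPM in wild-type libraries. Adh5 had 132 ± 23.0 CPM in knock-out against 117 ± 16.1 CPM in wild-type libraries. Adh7, known from the stomach, had 0 to 13 counts in knock-out and 4 to 22 counts in wild-type libraries.

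A joint fit of the 18 libraries tested whether the genotype difference itself changed, taken as the difference at 14 days minus that at 2 days. Time and table cannot be told apart in it. None of the 78 members passed (edgeR's quasi-likelihood F-test, Benjamini-Hochberg adjustment; 0.0% of 15458 genes). At an unadjusted p under 0.05, 14 members were lower and 1, Gstm5, was higher, against 3.64% and 2.32% of all genes, or 5.96% in either direction. The difference was positive for 15 members, against 48.9% of all genes, and its median over the members was -0.49 on the log2 scale against -0.01 for all genes. The smallest p-values belonged to Ces1f (-3.25 ± 0.72), Adh6a (-2.11 ± 0.47) and Cyp4f40 (-2.002 ± 0.45), each with an adjusted p of 0.496 by edgeR. DESeq2 called Adh6a (adjusted p = 0.0249) and Cyp4f40 (adjusted p = 0.0353), among 0.0895% of its genes, and limma voom called 0 members and 0.0% of all genes. Without knock-out library 1 at 2 days 8 members were lower at an unadjusted p under 0.05, 9 without knock-out library 4 at 2 days and 22 without knock-out library 1 at 14 days.

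Averaged over both times, 0 of 78 members passed by edgeR with Benjamini-Hochberg adjustment, beside 0.00647% of all genes. Limma voom called 0 members beside 0.00647% of all genes, and DESeq2 called 0 members beside 0.0454% of its genes. At an unadjusted p under 0.05, 8 members were higher and Cyp1a1 was lower, against 3.24% and 2.57% of all genes, or 5.81% in either direction, and 61 members had a positive fold change against 50.9% of all genes. Besides Adh6a and Ces1f, the higher ones included Gstm7 (0.71 ± 0.23 on the log2 scale), Ugt2b36 (0.96 ± 0.37), Gsta4 (0.86 ± 0.35), the pi-class Gstp2 (0.71 ± 0.32) and Ugt2a3 (0.65 ± 0.29). Each had an adjusted p of 0.8293 by edgeR. Without knock-out library 1 at 14 days Gsta4 was at 0.54 and Ugt2a3 at 0.30. Gstp2 had 1.51, 2.201, 1.44 and 0.861 CPM in knock-out libraries against 0.257, 0.991, 0.342 and 0.896 CPM in 2-day wild-type libraries, and 3.26 to 10.4 against 4.69 to 10.3 CPM at 14 days.

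The largest differences of the family lay between the times, where each time is a separate table and a batch cannot be told apart from time. In wild-type cells 42 of 78 members passed (adjusted p under 0.05 by edgeR's quasi-likelihood F-test, Benjamini-Hochberg adjustment), or 53.8%, where 53.4% of all genes did. The share was that of the background. By direction, 38 members were higher and 4 lower at 14 days, against 27.7% and 25.7% of all genes. The median was 1.25 on the log2 scale against 0.12. The count rule took in 9 members by the 14-day libraries alone and 2 by the 2-day libraries alone. This tilts the list toward genes high at 14 days, so its direction is a description. DESeq2 called 49 members (56.3% of its genes) and limma voom 46 (56.2%), and 65 changes were positive (53.5% of all genes). In knock-out cells 27 members passed, or 34.6% against 50.4% of all genes, with 21 higher and 6 lower at 14 days against 25.3% and 25.1%, and a median of 0.59 against 0.06. There DESeq2 called 33 members (53.3% of its genes) and limma voom 28 (51.5%), and 52 changes were positive (52.0% of all genes). Adh members had the highest family median in both, at 1.59 in knock-out and 3.08 in wild-type cells, and the Cyp median was -0.20 in knock-out and 1.07 in wild-type cells. Whether these shares differ between genotypes beyond the test of the difference given above was not tested. The enterocyte markers had a positive change at 14 days for 4 of 30 in knock-out and 19 of 30 in wild-type cells. Stem cell markers were positive for 2 of 19 in knock-out and 1 of 19 in wild-type cells, with medians of -1.42 and -1.63 on the log2 scale. Of these 19, 15 and 16 passed as lower at 14 days, against 25.1% and 25.7% of all genes. The part of these marker lists in the time effects was not tested.

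Gstp1 rose with time in both genotypes. In knock-out cells it had 472, 210, 325, 249 and 191 CPM at 14 days against 24.1, 29.8, 33.8 and 28.8 CPM at 2 days. In wild-type cells it had 256, 134, 335, 207 and 158 CPM at 14 days against 8.22, 25.5, 24.4 and 30.4 CPM at 2 days. Every 14-day library was above every 2-day library, with log2 changes of 3.31 ± 0.36 in knock-out (edgeR, Benjamini-Hochberg adjusted p = 1.59e-07) and 3.30 ± 0.36 in wild-type cells (adjusted p = 1.50e-07). Adh6a rose by 1.59 ± 0.34 in knock-out cells (edgeR, Benjamini-Hochberg adjusted p = 0.000529) and by 3.71 ± 0.38 in wild-type cells (adjusted p = 6.48e-08). Adh1 rose by 1.36 ± 0.27 and 1.82 ± 0.27 in knock-out and wild-type cells (edgeR, Benjamini-Hochberg adjusted p = 0.000261 and 1.11e-05). Ces1f rose by 1.54 ± 0.49 in knock-out and 4.79 ± 0.59 in wild-type cells (edgeR, Benjamini-Hochberg adjusted p = 0.0129 and 8.86e-07), and Adh4 by 2.60 ± 0.83 and 4.21 ± 0.92 (adjusted p = 0.0124 and 0.000630). Cyp4x1 was at 0 counts in all 4 wild-type libraries at 2 days and at 3 to 26 counts at 14 days, so no fold is given for it. The median over members was 1.25 also with a value below the fitted one set for Cyp4x1. Adh4 and Cyp4x1 met the count rule in the 14-day libraries alone, where they were high, so their rise is a description.

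Members that fell with time included Ces2g, Cyp2s1 and Cyp4v3 in both genotypes. Ces2g had 28.7, 29.3, 19.9, 18.7 and 15.7 CPM at 14 days against 83.5, 68.9, 78.7 and 82.9 CPM at 2 days in knock-out cells, a log2 change of -1.80 ± 0.28 (edgeR, Benjamini-Hochberg adjusted p = 1.53e-05). In wild-type cells it had 30.9, 29.6, 32.8, 19.9 and 19.1 CPM at 14 days against 181, 64.6, 61.7 and 79.2 CPM at 2 days, a log2 change of -1.87 ± 0.28 (edgeR, Benjamini-Hochberg adjusted p = 8.50e-06). It thus went the opposite way to its neighbour Ces2e, which in wild-type cells rose by 2.15 ± 0.36 (edgeR, Benjamini-Hochberg adjusted p = 3.85e-05). Cyp2s1 fell by 1.64 on the log2 scale in knock-out and 1.65 in wild-type cells (edgeR, Benjamini-Hochberg adjusted p = 0.000213 and 0.000177). Cyp2t4, a low gene with an overlapping gene on the opposite strand, fell by 1.74 in wild-type cells (edgeR, Benjamini-Hochberg adjusted p = 0.0196), but did not pass without wild-type library 2 at 2 days (-1.30).

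**Figure D5:**
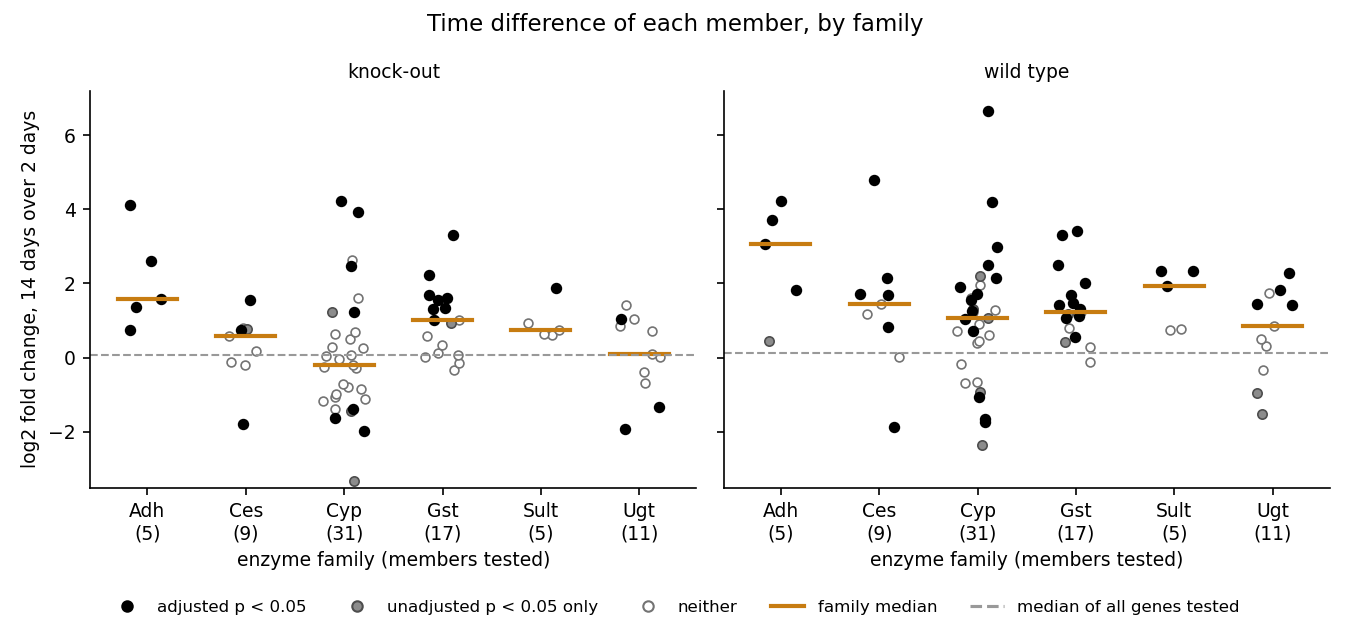
Log2 fold change, 14 days over 2 days, of each member by family in knock-out (left) and wild-type cells (right). Black points have an adjusted p under 0.05, grey ones an unadjusted p under 0.05 alone, orange lines are family medians and the dashed line is the median of all genes tested. The highest wild-type point is Cyp4x1, whose fitted value is no bound because its 2-day libraries were all at 0, and the Cyp median lies below the dashed line in knock-out and above it in wild-type cells.

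Other genes of the same pathways were read from 5 lists of non-members. None of their genes passed at either time by edgeR with Benjamini-Hochberg adjustment, beside 0.0% of all genes. For all 5 lists the counts below stand beside 51.0% of all genes with a positive fold change at each time. At an unadjusted p under 0.05 by edgeR, 2.72% of all genes were higher and 2.19% lower at 2 days. At 14 days these shares were 2.44% and 1.55%. At 2 days the retinoid list (carriers, esterifying enzymes, retinal dehydrogenases and receptors) had a positive fold change for 19 of 25 tested genes, 4 of them at an unadjusted p under 0.05, and at 14 days for 10 of 26, none at that level. Its summed level was 755 to 989 CPM in knock-out against 602 to 730 CPM in wild-type libraries at 2 days, and 783 to 1372 against 945 to 1595 CPM at 14 days. Rbp2, a retinol carrier known from enterocytes, averaged 48.8 ± 38.4 CPM in the knock-out group and 16.2 ± 8.25 CPM in the wild-type group at 2 days (± SD, 4 libraries a group). Its log2 fold change of 1.59 ± 0.50 (edgeR, Benjamini-Hochberg adjusted p = 0.866) had the smallest p of that list at 2 days. Aldh1a7 (1.24 ± 0.52) and Dgat1, which esterifies acylglycerols and retinol (0.72 ± 0.32), came next. At 14 days the smallest p of the list belonged to Rdh16 (-1.49 ± 0.71), Bco2 (-0.52 ± 0.28) and Aldh1a7 (-0.67 ± 0.39).

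The regulators of these genes, transcription factors and their partners, were split evenly at 2 days, with 12 positive and 12 negative fold changes, a median of 0.00 and 2 lower at an unadjusted p under 0.05. These were Keap1, the brake on the antioxidant factor NRF2 (10.4 ± 2.15 CPM in knock-out against 16.9 ± 5.47 CPM in wild-type libraries), and Foxa1 (65.0 ± 10.1 CPM in knock-out against 102 ± 45.7 CPM in wild-type libraries; ± SD, 4 libraries a group). At 14 days 21 of 26 were negative, with a median of -0.10, and the smallest p belonged to Mafg (-0.42 ± 0.20), Pparg (0.60 ± 0.33) and the vitamin D receptor Vdr (-0.33 ± 0.19). Of other phase 1 genes 20 of 30 were positive at 2 days, 3 at an unadjusted p under 0.05 (Fmo5 at 1.19 ± 0.42, Xdh at 0.83 ± 0.34 and Aldh2 at 0.39 ± 0.18 on the log2 scale). At 14 days 14 of 31 were positive, and Por, the reductase that passes electrons to the cytochromes P450, averaged 54.8 ± 6.27 CPM in the knock-out group and 73.7 ± 13.8 CPM in the wild-type group (± SD, 5 libraries a group), a log2 fold change of -0.41 ± 0.15 (edgeR, Benjamini-Hochberg adjusted p = 0.957). Of other phase 2 genes 12 of 23 were positive at 2 days, near the 51.0% of all genes. At an unadjusted p under 0.05, 4 were higher, against 2.72% of all genes. Among them were Ggt1 (2.205 ± 0.79), Mgst3 (0.65 ± 0.25) and Ugdh, which makes the glucuronic acid donor (0.55 ± 0.22). At 14 days 12 of 23 were positive, again near the 51.0% of all genes, with Mgst1 at 0.44 ± 0.20. Of the export and uptake transporters 14 of 19 were positive at 2 days, none at an unadjusted p under 0.05, and 6 of 19 at 14 days, with Slc22a4 (-1.06 ± 0.47) and the conjugate exporter Abcc2 (-0.39 ± 0.18) lower at an unadjusted p under 0.05.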

How the data were processed

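Sequencing libraries were made from 18 samples of sorted intestinal stem cells. The authors deposited whole-number counts per gene in 2 tables, one per time, which are not normalized. STAR 2.4.2a, the build GRCm38 and bcl2fastq 2.20.0.422 are named in the submitters' processing notes. The sources used here do not give the annotation, the counting tool, or how strand and reads mapping to several genes were treated. No molecular identifiers are mentioned, so counts may include amplified copies. Columns whose names hold Dmin at 2 days and Dko at 14 days were read as Dlg1 knock-out. Column names carry no replicate number, and libraries were numbered by their place in the table.

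From these counts, genotype effects at each time were fitted with edgeR 4.0.16 (quasi-likelihood F-test, TMM scaling, filterByExpr with a minimum count of 10) in R 4.3.3, and the average, the difference between times and the time effects in a joint fit with 4 group means. The 2 tables were scaled together for the joint fit and for CPM. P-values were adjusted by Benjamini-Hochberg over all genes tested and called under 0.05. Standard errors were taken as |log2 fold change| over √F. Exact permutation tests used log2(CPM + 0.5). DESeq2 1.42.0, limma 3.58.1 (voom), other scalings, other filters, a covariate of Y-linked transcripts, a table without mitochondrially encoded genes and leaving out each library were the alternatives. Counts at an unadjusted p and of positive fold changes were added to them after seeing the data, as were fits by the letter (B or J) in the 14-day column names, as a block and within each letter. Models were tested on simulated data.

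The members and lists were chosen with earlier results of these data known. The members named were up to 8 of smallest p in each genotype comparison, 3 for the difference between times and the highest of each family at each time. Also named were Adh1, Adh4, Adh5 and Adh7, and the members that did not overlap at both times (none). The 3 largest changes in each direction between the times in wild-type cells were named too. From each list of other genes, up to 3 of smallest p per time were named. Cyp2c29 and Cyp4v3 fall outside this rule and were named after their values were seen. The depth was 11133674 to 40544439 counts per library.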

Additional observations from a re-analysis of the deposited data

Results flagged for a closer look

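In 128 groups of 4 or 5 libraries, checked for the members named, 12 values stood far from the others of their group by Dixon's criterion. Chance gives about 1 in 20 groups. At 2 days Adh6a had 84.6 CPM in knock-out library 1, where the other knock-out libraries had 28.7 to 33.9 CPM. A further 3 values, of low genes, were also apart: Adh7 at 0.0717 CPM (1 count) in knock-out library 4 and at 0.291 CPM (5 counts) in wild-type library 2, and Cyp4x1 at 0.262 CPM (4 counts) in knock-out library 3, each with the rest of its group at 0. In wild-type libraries at 2 days Ces2a was lowest in library 4 (8.13 CPM, others 14.5 to 15.7), Cyp4f40 was lowest in library 1 (2.998 CPM, others 3.90 to 4.11) and Ugt2b34 was highest in library 1 (222 CPM, others 137 to 147).

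At 14 days 3 members were apart in knock-out library 1: Cyp3a13 at 127 CPM (others 45.6 to 50.4), Gsta1 at 18.98 CPM (others 1.69 to 2.69) and Ugt2a3 at 68.1 CPM (others 14.3 to 19.5). That library had the highest enterocyte marker sum of its group, 6076 CPM, and the highest goblet marker sum, 12778 CPM. In wild-type libraries at 14 days Gstm5 stood apart in library 3 (72.7 CPM, others 42.3 to 48.6) and Ugt2a3 in library 1 (35.7 CPM, others 16.0 to 19.4).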

How the results depend on the processing

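No paired analysis was possible because the columns carry no replicate number. The 14-day columns carry a letter, B or J, in both genotypes; with it as a block, chosen after seeing the data, 0 members were called at 14 days, averaged or for the difference between times. Among the results recomputed, the signs that turned were the 14-day median of members (-0.17), which was 0.15 among letter B libraries and 0.0038 without wild-type library 3, and the 14-day value of Cyp1a1, 0.18 among letter B libraries. At 2 days the count of members called, 0, was 1 (Adh6a) without a filter on low counts and 3 with DESeq2. For the genotype effect averaged over both times it was 2 without a filter (Adh6a and Ces1f) in place of 0. For the difference between times it was 9 without a filter and 2 with DESeq2 in place of 0. Members higher at 2 days at an unadjusted p under 0.05 numbered 12, and 6 to 17 when 1 library was left out. Members lower for the difference between times at an unadjusted p under 0.05 numbered 14, were 22 without a filter, and 8 to 22 when 1 library was left out. The median log2 fold change of members was 0.50 to 0.56 at 2 days and -0.22 to -0.12 at 14 days with other tools, scalings, filters and covariates, and 0.28 to 0.69 and -0.29 to 0.0038 when 1 library was left out. Among single members, the decrease of Cyp2t4 with time in wild-type cells did not pass without a filter (-1.72); the cause of these shifts was not tested. With 4 or 5 libraries a group, low members limit what can be seen. A total of 11 members at 2 days and 6 at 14 days reached the count filter in too few libraries to be tested.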
